A study of Sus scrofa with 32 samples.

Results

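The levels of 4 genes are described across the cells of pig ileum and blood: BCL6, BACH2, POU2AF1 and MEF2B, 4 of the 25880 genes in the count matrices. They are transcription genes of the germinal center, picked by symbol alone, though earlier results of these data were known when the list was made. All 4 were found by name and all 4 passed the filter on low counts. On the RefSeq annotation of Sscrofa11.1, BACH2 lies on chromosome 1 from 57881203 to 58281740, MEF2B on chromosome 2 from 58699173 to 58722554, POU2AF1 on chromosome 9 from 39121422 to 39144636 and BCL6 on chromosome 13 from 125377247 to 125401328.

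Germinal centers are the sites in lymphoid follicles, including those of Peyer's patches, where B cells divide, mutate their antibody genes and are selected on the result. BCL6 is a transcriptional repressor required in both germinal center B cells and follicular helper T cells, and MEF2B is a transcription factor that activates BCL6. POU2AF1 is a coactivator that works with the octamer-binding factors POU2F1 and POU2F2 throughout the B lineage, and BACH2 is a repressor that holds back PRDM1 and with it the change to an antibody-secreting cell.

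The study took cells from 2 mixed-breed pigs of 7 weeks with no experimental treatment, and asked which lymphocytes the distal ileum holds with and without Peyer's patches and how they compare with those in blood. Each pig gave ileum cut to hold only Peyer's patch regions (PP), ileum without them (non-PP), a full cross section (whole ileum) and peripheral blood mononuclear cells (PBMC), so each of the 8 libraries was 1 of 2 in its group. Ileal suspensions mixed epithelium, lamina propria, submucosa and any Peyer's patches and were enriched for live lymphocytes. Messenger RNA was counted as unique molecular identifiers (UMIs) at the 3′ end of transcripts.

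The libraries held from 21134542 to 40111934 UMIs. After cells with few UMIs or genes or a high mitochondrial share were left out by the thresholds of the study there were 48629 cells, from 3776 to 7704 per library. Pairs of libraries shared from 21 to 80 cell barcodes, between 0.633 and 1.31 times what chance gives. The library labelled whole ileum of pig 1 went against its label: its Y-linked genes stood at 202 UMIs per 1000000 (CPM), against 0.686 to 2.57 in the other libraries of pig 1 and 115 to 225 in those of pig 2. Called results of the 4 genes, and BCL6 by TOP2A, are given with and without it; list counts and the genes of like level include it.

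B cells were taken as cells with at least 1 CD79B UMI and no CD3E UMI, which gave 17536 cells. The PP libraries held 3881 and 3800, the whole ileum libraries 2041 and 4846, the PBMC libraries 1601 and 1274, and the non-PP libraries only 28 and 65. They were split by TOP2A, a DNA topoisomerase of dividing cells, into 4207 TOP2A-positive and 13329 TOP2A-negative cells. The label B cell was borne out by MS4A1, the gene of CD20, with a UMI in 64.3% to 82.0% of ileal B cells and in 0.1% to 4.5% of ileal T cells (cells with CD3E and no CD79B), though CD79A, the partner of CD79B, was found in only 7.14% to 35.9% of ileal B cells. In the non-PP library of pig 2, however, CD3G of the T cell receptor complex had a UMI in 32.3% of B cells, against 7.1% to 11.3% in the other ileal libraries. The 6 cycling markers other than TOP2A summed to between 4678 and 5878 CPM in TOP2A-positive and between 1278 and 1725 CPM in TOP2A-negative B cells of PP and whole ileum, so the negative cells still included cycling ones.

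BCL6 was highest in dividing ileal B cells, lower in TOP2A-negative B cells and lower again in T cells, and it was low in blood. In TOP2A-positive B cells it stood at 92.4 and 82.3 CPM in PP of pigs 1 and 2, 99.4 and 78.5 in non-PP, and 63.1 and 92.1 in whole ileum. In TOP2A-negative B cells the values in the same order were 58.2, 48.4, 47.0, 24.1, 45.2 and 57.5 CPM. Every ileal library was therefore higher in its TOP2A-positive cells, and the lowest TOP2A-positive value lay above the highest TOP2A-negative one. The non-PP values rested on 6 and 9 BCL6 UMIs in TOP2A-positive and 4 and 5 in TOP2A-negative cells. Ileal T cells ranged from 25.8 to 32.3 CPM around a median of 26.9, and the non-PP library of pig 2 had 24.1 CPM in its TOP2A-negative B cells, below its own T cells at 26.6. In blood BCL6 was at 6.14 and 1.38 CPM in TOP2A-positive and 3.30 and 8.67 CPM in TOP2A-negative B cells, and at 3.07 and 6.77 CPM in T cells, so the blood classes overlapped.

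MEF2B was high in ileal B cells of both TOP2A classes and low in blood. It stood at 227 and 285 CPM in PP, 182 and 366 in non-PP and 252 and 319 in whole ileum among TOP2A-positive B cells. Among TOP2A-negative B cells the values in the same order were 167, 244, 153, 179, 210 and 288 CPM. The TOP2A-positive cells were higher in each of the 6 ileal libraries, but across libraries the classes overlapped. Blood B cells held 7.36 and 11 CPM when TOP2A-positive and 17.0 and 12.2 CPM when TOP2A-negative, next to blood T cells at 10.0 and 10.9 CPM. MEF2B had a UMI in 5.10% to 11% of blood B cells and in 4.22% and 4.45% of blood T cells. The CPM of TOP2A-positive blood B cells lay at or near that of T cells, and that of TOP2A-negative ones above it. How much of the MEF2B RNA in blood came from B cells was not tested.

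POU2AF1 was a gene of all B cells, dividing or not, in ileum and blood alike. In TOP2A-positive B cells it was at 283 and 248 CPM in PP, 182 and 323 in non-PP, 265 and 294 in whole ileum and 103 and 92.4 in PBMC. In TOP2A-negative B cells the same libraries gave 294, 274, 141, 203, 277, 339, 116 and 119 CPM. Within a library it was lower in the TOP2A-positive cells of all 4 PP and whole ileum and both PBMC libraries, and higher in those of both non-PP libraries. The TOP2A classes overlapped across ileal libraries, and every blood value was below every ileal one. T cells of PP and whole ileum held 16 to 19.0 CPM, those of non-PP 0.552 and 1.08 and those of blood 1.87 and 2.69.

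BACH2 gave few UMIs and was uneven between libraries. It stood at 56.9 and 31.6 CPM in PP, 66.3 and 8.72 in non-PP and 30.6 and 36.4 in whole ileum among TOP2A-positive B cells, and at 39.7, 33.2, 11.8, 9.65, 33.0 and 35.1 CPM among TOP2A-negative ones. It was higher in the TOP2A-positive cells of 3 libraries and lower in those of the other 3. The non-PP values came from 4 and 1 UMIs in the TOP2A-positive and 1 and 2 UMIs in the TOP2A-negative cells, so they carry little weight. Blood B cells held 7.36 and 11 CPM when TOP2A-positive and 14.1 and 6.33 CPM when TOP2A-negative, and T cells ranged from 3.13 to 13.7 CPM in the ileum and were at 3.67 and 8.81 CPM in blood.

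**Figure D1:**
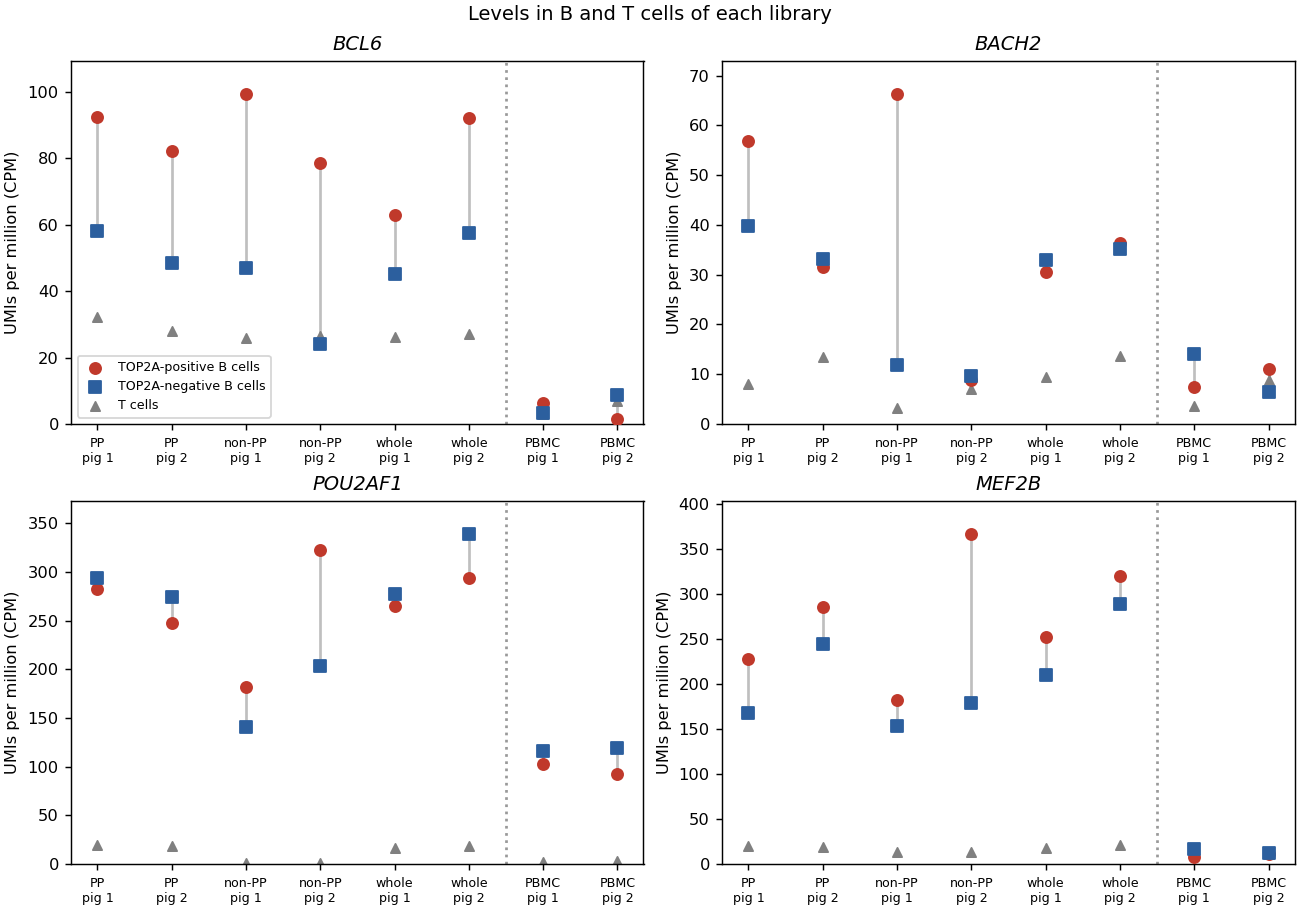
UMIs per 1000000 (CPM, y axis) of each gene in the 8 libraries (x axis), with red circles for TOP2A-positive B cells, blue squares for TOP2A-negative B cells and grey triangles for T cells; a grey line joins the B cell values of a library. Red lies above blue in all 6 ileal libraries for BCL6 and MEF2B, and the PBMC libraries right of the dotted line are low for BCL6, MEF2B and BACH2 and intermediate for POU2AF1.

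By share of cells, POU2AF1 had a UMI in 62.5% to 77.3% of ileal TOP2A-positive B cells, MEF2B in 67.5% to 78.9%, BCL6 in 30.5% to 50% and BACH2 in 5.26% to 28.4%. The TOP2A-negative shares were 43.5% to 56.1%, 25.0% to 48.1%, 10.0% to 16.9% and 4.35% to 11.6% in the same order, and the T cell shares 0.147% to 5.23%, 4.03% to 6.47%, 6.59% to 9.49% and 0.885% to 3.58%. TOP2A-positive B cells were deeper, with medians of 4369 to 8930 UMIs per cell against 2282 to 4407 in TOP2A-negative B cells and 2228 to 3370 in T cells. After every cell was thinned to the same number of UMIs, the minimum for a cell, POU2AF1 was found in 24.0% to 32.5% of TOP2A-positive and 18.1% to 35.8% of TOP2A-negative cells and MEF2B in 18.1% to 34.3% and 15.4% to 30.5%, so the ranges of the TOP2A classes overlapped for both. BCL6 kept 7.75% to 11.2% against 3.80% to 7.94%, ranges that overlapped narrowly, and thinned T cells held it in 3.19% to 3.89%. BACH2 was left with 0.652% to 7.81% against 0.845% to 5.62%.

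The genes were often found in the same cells. At least 2 of the 4 had a UMI in 63.9% to 72.3% of TOP2A-positive and 35.4% to 39.5% of TOP2A-negative B cells of PP and whole ileum, against 4.32% to 15.1% of blood B cells of either class. BCL6 and MEF2B were found together 1.08 to 1.15 times as often as independent detection gives in TOP2A-positive cells of these 4 libraries and 1.19 to 1.34 times in TOP2A-negative cells. Deeper cells hold more of every gene, and over all 6 pairs of members and both classes the ratio was only 1.01 to 1.4.

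Whether the genes differed with division was tested on summed counts, TOP2A-positive minus TOP2A-negative B cells averaged over the 3 ileal dissections, with edgeR's quasi-likelihood test and Benjamini-Hochberg adjustment over 10302 genes. At an adjusted p under 0.05 this called 10.6% of all genes, 4.89% higher and 5.67% lower, and none of the 4 members. BCL6 was nearest, with a log2 difference of 0.72 (SE 0.281, 95% interval 0.12 to 1.32, adjusted p = 0.130). MEF2B differed by 0.22 (SE 0.175, interval -0.15 to 0.60, adjusted p = 0.493), BACH2 by 0.38 (SE 0.456, interval -0.60 to 1.35, adjusted p = 0.690) and POU2AF1 by -0.10 (SE 0.126, interval -0.37 to 0.17, adjusted p = 0.702). The median over all genes was -0.16. The values of MEF2B and POU2AF1 moved with the gate. With every cell thinned before gating they were -0.72 (adjusted p = 0.340) and -0.84 (adjusted p = 0.0261). With B cells taken by CD79A they were 1.27 (adjusted p = 0.0277) and 0.14. MEF2B thus turned direction thinned and passed with CD79A, while POU2AF1 passed thinned and turned direction with CD79A. The non-PP TOP2A-positive sums in these fits held only 5 and 9 cells thinned and 2 and 5 cells with CD79A.

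The BCL6 result depended on how the error was taken. With each library as its own block, which sets the 2 classes of a library against each other, the log2 difference was 0.71 with an adjusted p of 0.0278, and on counts summed per pig it was 0.66 with an adjusted p of 0.00731. Those sums place the library labelled whole ileum of pig 1 by its label, and leaving it out, an alternative added after the data were seen, gave 0.67 with an adjusted p of 0.0290. Thinning every cell before gating left the non-PP TOP2A-positive sums, an equal part of the ileal mean, only 5 and 9 cells, with 6250 and 11250 UMIs. BCL6 was then only 0.21 with an adjusted p of 0.979. Over PP and whole ileum alone, chosen after the data were seen because of the few non-PP cells, it was 0.54 with an adjusted p of 0.0687. Without the library labelled whole ileum of pig 1 it was 0.75 with an adjusted p of 0.163, and without the first or the second PBMC library, which enter only through the shared error, it was 0.78 with adjusted p of 0.0276 and 0.0278. By dissection the difference was 0.59 in PP (adjusted p = 0.225), 1.08 in non-PP (adjusted p = 0.667) and 0.49 in whole ileum (adjusted p = 0.371), and in PBMC it was -0.66 (adjusted p = 0.668).

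Finer steps of TOP2A showed where in the B cells each gene was high. BCL6 went from 58.2 CPM in PP of pig 1 at 0 TOP2A UMIs to 61.3 at 1 UMI, 80.8 at 2 or 3 and 114 at 4 or more. The other 3 libraries with enough cells climbed in the same order, from 48.4 to 93.6 in PP of pig 2 and from 45.2 to 78.3 and 57.5 to 107 in whole ileum. MEF2B instead peaked at 2 or 3 TOP2A UMIs in all 4 libraries, at 255, 323, 315 and 356 CPM, and stood at 223, 274, 229 and 285 CPM in the cells with 4 or more. POU2AF1 showed no such order, with 294, 274, 285 and 286 CPM over the 4 steps in PP of pig 1. From 0 to 4 or more TOP2A UMIs it went from 274 to 237 CPM in PP of pig 2. In whole ileum of pigs 1 and 2 it went from 277 to 267 and from 339 to 282. BACH2 in PP of pig 1 had 39.7, 52.0, 51.0 and 62.3 CPM, but in PP of pig 2 it had 33.2, 24.1, 26.2 and 37.6. In whole ileum it had 33.0, 13.9, 33.4 and 38.8 CPM in pig 1 and 35.1, 33.5, 32.5 and 39.8 in pig 2. No test was run on the steps, and cells with more TOP2A UMIs are also deeper.

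**Figure D2:**
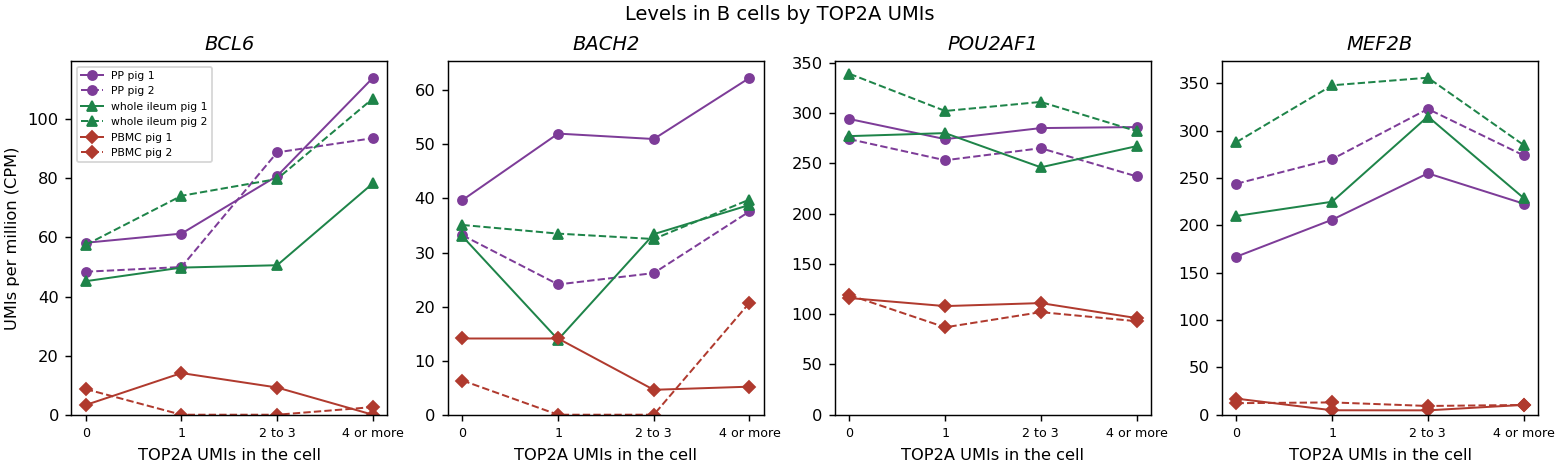
UMIs per 1000000 (CPM, y axis) of each gene in B cells by their number of TOP2A UMIs (x axis: 0, 1, 2 to 3, 4 or more), with 1 line for each PP and whole ileum library and each PBMC library; non-PP libraries are left out for too few cells. BCL6 climbs in the 4 ileal libraries, MEF2B peaks at 2 to 3 UMIs in each of them and POU2AF1 is lower at 4 or more UMIs than at 0 in each.

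The other genes of these pathways were taken from lists chosen with earlier results of these data known. In the comparison by TOP2A, 6 of 23 tested germinal center genes rose: STX7 by 1.12, ELL3 by 0.45, HMCES by 1.14, MYBL1 by 0.97, LRMP by 0.90 and EZH2, a histone methyltransferase of dividing germinal center B cells, by 1.45 on the log2 scale. CD83, an activation marker of light zone B cells, fell by 1.34, and the list median was 0.14. Of 10 genes of the DNA repair that acts in hypermutation 3 rose, among them the translesion polymerase POLH by 1.55 and the replication clamp PCNA by 0.99, and the median was 0.24. Of 15 partners of the members only MAFF was called, at -4.27 (median -0.14). Plasma cell genes fell in 5 of 9 (median -1.60) and resting and recirculating genes in 5 of 10 (median -2.67), among them CCR7 at -5.85 and GPR183 at -5.50. The sizes of these falls depend on the non-PP sums, which count equally in the mean with only 8 and 19 TOP2A-positive cells. CCR7 was at 14.9 to 22.9 CPM in TOP2A-positive and 76.8 to 148 CPM in TOP2A-negative cells of PP and whole ileum. Over all ileal libraries its lowest TOP2A-positive value was 0. The T cell markers other than CD3E, 5 of 5 of which were found in both classes, summed to 83.1 to 182 CPM in TOP2A-negative and 41.3 to 85.0 CPM in TOP2A-positive cells of PP and whole ileum, and their part in these differences was not tested.

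Ileal TOP2A-negative B cells held more BCL6, MEF2B and POU2AF1 than those of blood. The comparison, averaged over the 3 dissections, called 27.3% of the 10302 genes, 13.3% higher and 14.0% lower, and 3 of the 4 members, all higher in ileum. MEF2B was 13.9-fold higher (log2 difference 3.80, SE 0.281, interval 3.20 to 4.40, adjusted p = 5.27e-07). BCL6 was 7.23-fold higher (2.85, SE 0.406, interval 1.98 to 3.72, adjusted p = 0.000150), and POU2AF1 2.10-fold (1.07, SE 0.167, interval 0.72 to 1.43, adjusted p = 0.000300). No ileal value of these 3 genes overlapped a blood value. Without the library labelled whole ileum of pig 1 the log2 differences were 3.87, 2.91 and 1.12, with adjusted p of 2.09e-06, 0.000226 and 0.00108. The blood libraries moved BCL6 most, to 2.23 without PBMC of pig 1 (adjusted p = 0.000403) and to 3.66 without PBMC of pig 2 (adjusted p = 4.13e-05). POU2AF1 lost its call when B cells were gated on CD79A in place of CD79B (0.53, adjusted p = 0.153). The summed counts cannot tell more cells that use a gene from more RNA of it per cell. Ileal cells were freed by digestion of tissue and blood cells were not, so tissue and isolation cannot be told apart here.

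BACH2 was 2.28-fold higher in ileum (log2 difference 1.19, SE 0.525, interval 0.06 to 2.31), which did not pass (adjusted p = 0.112). The non-PP part of the ileal mean rested on 1 and 2 UMIs. Of 18 alternatives 4 passed the threshold, and none reversed the direction. The value moved with the libraries used. Without PBMC of pig 1 the difference was 1.77, and without PBMC of pig 2 it was 0.66. Set against PP and whole ileum only, an alternative added after the data were seen, it was 1.77 with an adjusted p of 0.000659. In those 4 libraries BACH2 lay between 33.0 and 39.7 CPM, above both blood values.

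Blood and ileal TOP2A-negative B cells also differed in other ways that move with these results. The 6 cycling markers summed to 315 and 351 CPM in blood against 1278 to 1725 CPM in PP and whole ileum, and KLF2, a factor of recirculating lymphocytes, had a UMI in 85.2% and 87.4% of these cells in blood against 8.70% to 35.0% in the ileum. The 3 epithelial markers summed to 0.167 and 0.174 CPM in blood, against 95.3 to 214 CPM in PP and whole ileum, and the 5 T cell markers to 78.6 and 112 against 83.1 to 182 CPM. The part of these differences in the members' values was not tested.

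Among the lists, 13 of 23 germinal center genes were higher in ileum and 6 lower (median 1.12). RGS13 and GCSAM, both of germinal center B cells, were higher by 9.73 and 3.97 on the log2 scale, and S1PR2, a receptor that keeps germinal center B cells in place, by 8.13. Blood B cell sums of both TOP2A classes held S1PR2 at only 0 to 1.38 CPM. The size of its difference therefore rests on very few blood UMIs. CD38 was lower, at -2.08, and so was CXCR5, the follicle-homing receptor, at -0.83. Of 10 repair genes 6 were higher and none lower (median 1.11), among them UNG, the uracil glycosylase, by 1.65 and POLH by 2.24. POU2F1, a DNA-binding partner of POU2AF1, was higher by 1.69 while the other one, POU2F2, was lower at -0.78. With MAFF higher and NCOR1 lower, 2 of 15 partners moved each way (median -0.18). Plasma cell genes were higher in 5 of 9 and lower in none (median 1.48). Resting and recirculating genes split 3 against 3 of 10 (median -0.32), with S1PR1 lower at -4.39 and CXCR4 higher by 4.10. CXCR4 was on both this list and that of germinal center genes, and counts in each.

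**Figure D3:**
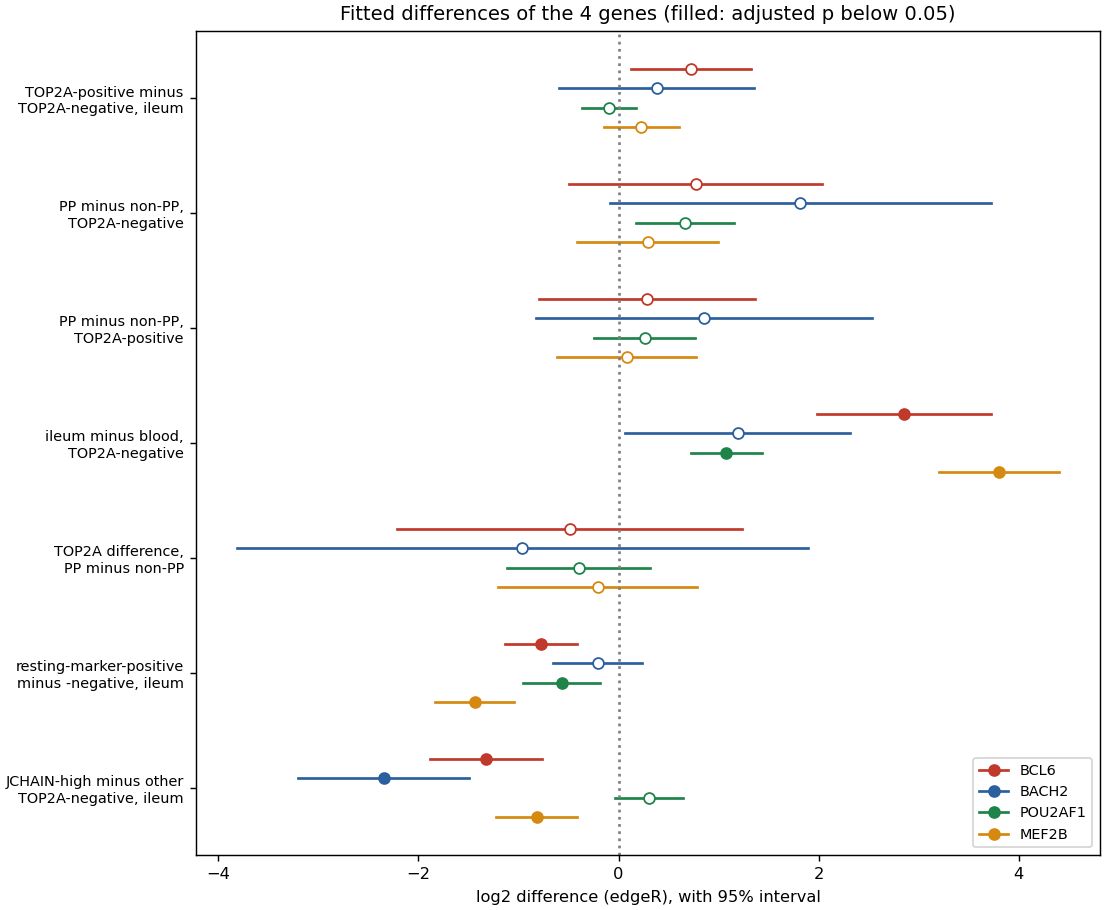
Fitted log2 differences (x axis) of the 4 genes with 95% intervals in each comparison; filled points passed an adjusted p under 0.05. The ileum minus blood differences of MEF2B, BCL6 and POU2AF1 lie right of 0, and those of resting-marker-positive or JCHAIN-high cells lie mostly left of it.

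PP was compared with non-PP ileum to ask whether the genes followed the Peyer's patches. These comparisons rest on the 28 and 65 non-PP B cells, and among them the T cell markers of TOP2A-negative B cells summed to 517 CPM in 1 library and 70.7 in the other. In TOP2A-negative B cells 0.252% of genes were called, 0.107% higher and 0.146% lower, and no member was. The log2 difference, PP minus non-PP, was 0.77 for BCL6 (SE 0.591, adjusted p = 0.659), 1.81 for BACH2 (SE 0.887, interval -0.09 to 3.72, adjusted p = 0.444), 0.66 for POU2AF1 (SE 0.229, interval 0.17 to 1.15, adjusted p = 0.24) and 0.29 for MEF2B (SE 0.327, adjusted p = 0.758), beside a median of 0.37 over all genes. POU2AF1 was higher in both PP libraries, at 294 and 274 CPM, than in both non-PP libraries, at 141 and 203. With B cells taken by CD79A, POU2AF1 and MEF2B passed, at 1.89 (adjusted p = 0.0148) and 3.02 (adjusted p = 0.0237). That gate left only 4 and 31 TOP2A-negative cells in the non-PP libraries, so these values carry little weight. Of all the listed genes STX7 alone was called, higher in PP by 1.95 (adjusted p = 0.0450).

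In TOP2A-positive B cells the differences were 0.28 for BCL6 (adjusted p = 0.892), 0.85 for BACH2 (adjusted p = 0.820), 0.26 for POU2AF1 (adjusted p = 0.820) and 0.08 for MEF2B (adjusted p = 0.946). edgeR's test called 0% of genes there, with 792 genes at an unadjusted p under 0.05 and 5 called by DESeq2. Nor did the contrast by TOP2A differ detectably between PP and non-PP, which called 0.0291% of genes: its difference was -0.49 for BCL6 with an interval of -2.21 to 1.23 (adjusted p = 0.990), -0.96 for BACH2, -0.40 for POU2AF1 and -0.21 for MEF2B. No listed gene was called in either of these comparisons. The differences fitted for BCL6 and BACH2 between PP and non-PP were thus not called with these few non-PP cells. What size could have been detected was not tested.

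TOP2A-negative B cells of the ileum were next divided by whether they held a UMI of a set of genes of resting and recirculating B cells, among them KLF2, CCR7 and FCER2. BCL6 was at 43.4 and 23.0 CPM in resting-marker-positive cells of PP and at 26.8 and 31.6 in those of whole ileum, against 68.7, 60.7, 55.1 and 67.0 CPM in marker-negative cells of the same libraries. MEF2B was at 71.0, 79.4, 84.9 and 135 CPM with a marker and at 222, 314, 270 and 340 without. POU2AF1 had 188, 160, 186 and 199 CPM with a marker and 354, 324, 320 and 384 without. For all 3 genes the highest marker-positive library lay below the lowest marker-negative one. BACH2 was at 30.3, 23.5, 35.0 and 29.2 CPM against 47.3, 38.9, 34.7 and 38.9, and its classes met in whole ileum of pig 1.

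The test used 20 ileal sums of at least 10 cells, fitted with 4 exclusive classes and 8135 genes. It called 32.3% of genes between marker-positive and marker-negative cells, 18.3% higher and 14.0% lower. The non-PP libraries, with 7 and 6 marker-positive cells, entered only the marker-negative class, with 10 and 30 cells. The 2 classes thus differed in dissection, and no library block was fitted here. Of the members, 3 of 4 were lower with a marker: MEF2B by a log2 difference of -1.43 (SE 0.191, interval -1.83 to -1.04, adjusted p = 2.69e-06), BCL6 by -0.78 (SE 0.172, interval -1.13 to -0.42, adjusted p = 0.00109) and POU2AF1 by -0.57 (SE 0.184, interval -0.95 to -0.19, adjusted p = 0.0195). BACH2 differed by -0.21 (SE 0.215, adjusted p = 0.485). Without the library labelled whole ileum of pig 1 the values were -1.37, -0.72 and -0.51, with adjusted p of 0.000165, 0.00815 and 0.116 for MEF2B, BCL6 and POU2AF1, so the POU2AF1 call was lost, as it was without PP of pig 2 (-0.50, adjusted p = 0.150) or whole ileum of pig 2 (-0.53, adjusted p = 0.101). Thinning every cell to that minimum before the gates ended the BCL6 call (-0.42, adjusted p = 0.112), and gating on CD79A ended that of POU2AF1 (-0.43, adjusted p = 0.337). The cycling markers summed to 491 to 768 CPM in marker-positive and 1612 to 2045 CPM in marker-negative cells of PP and whole ileum, and their part in these differences was not tested.

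The lists moved with this split too. All 5 tested resting genes outside the gate were higher, such as S1PR1 by 3.93 and GPR183 by 3.72, and 5 of 8 plasma cell genes were higher and none lower (median 0.94), with IRF4 by 1.88 and ELL2 by 2.16. Of 9 repair genes 6 were lower and none higher, among them UNG at -1.25, MSH6 at -1.31, POLH at -1.01, EXO1 at -0.91 and PCNA at -0.95. Germinal center genes went both ways, 10 of 23 lower and 6 higher (median -0.23): S1PR2, GCSAM, RGS13 and MYBL1 were lower, between -1.53 and -1.89, and CD38 and CD83 were higher by 2.70 and 1.85. Of 12 partners 3 were higher and 1 lower (median 0.26), the lower one being POU2F1 at -0.93 and the highest MAFF at 2.26, ahead of BACH1, the relative of BACH2, at 1.46.

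In blood, 1352 and 1116 of the TOP2A-negative B cells had a resting marker and 128 and 55 did not. BCL6 was at 3.08 and 9.02 CPM with a marker and at 5.0 and 10.2 without, and MEF2B at 17.7 and 13 with and 10.0 and 0 without. The ileal marker-positive cells, at 23.0 CPM of BCL6 and 71.0 CPM of MEF2B or more in PP and whole ileum, were thus above blood cells of the same class in all 4 libraries. The cycling markers summed to 491 to 768 CPM in these ileal cells and to 254 to 328 CPM in the blood ones. The part of cycling and of RNA outside cells in this difference was not tested.

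**Figure D4:**
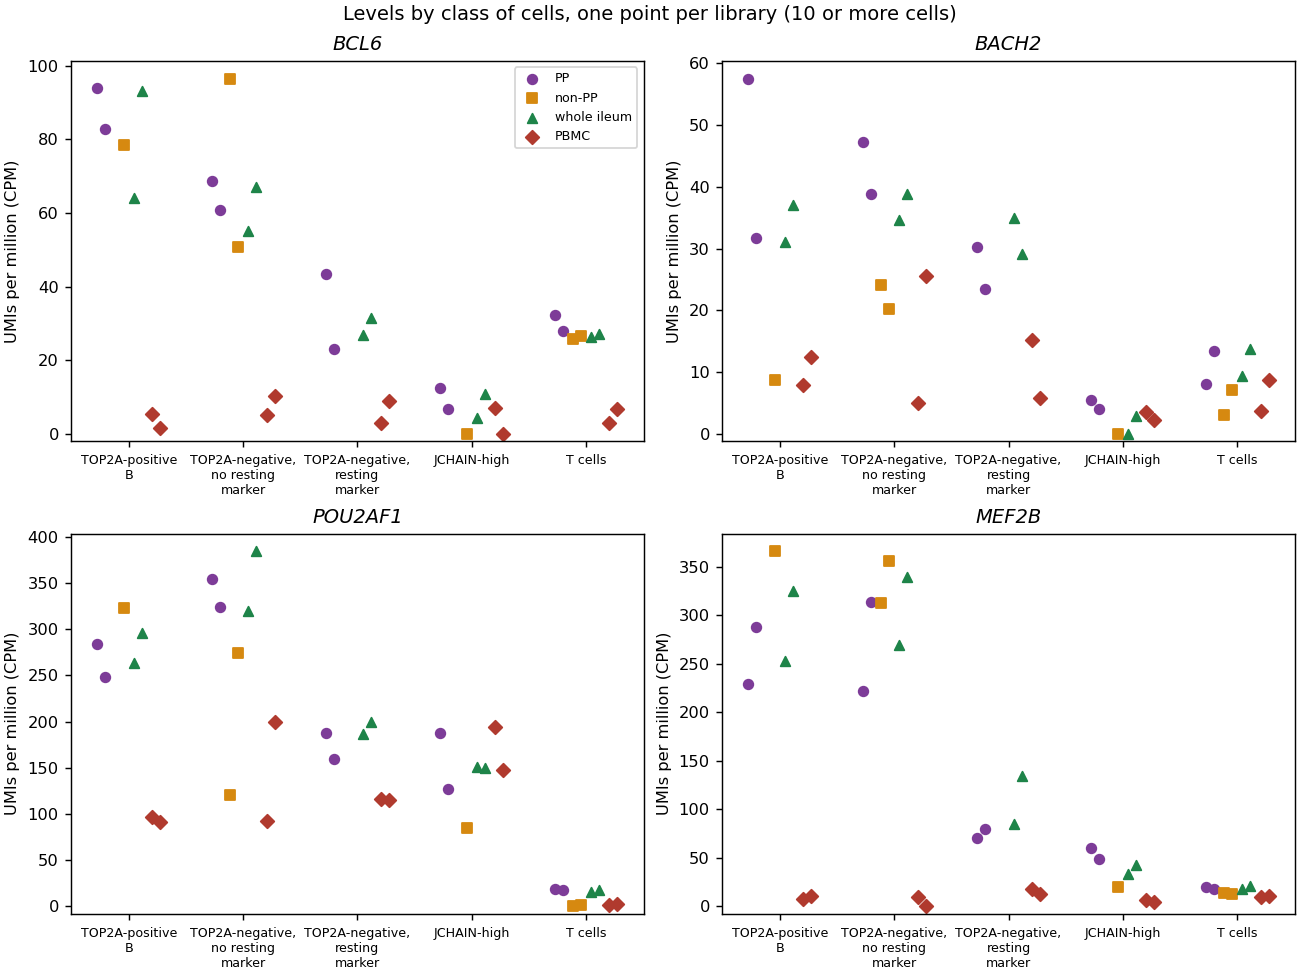
UMIs per 1000000 (CPM, y axis) of each gene in 4 exclusive classes of B lineage cells and in T cells (x axis), 1 point for each library with at least 10 cells in the class and shapes for the dissections. BCL6, MEF2B and BACH2 are lowest among ileal B lineage classes in JCHAIN-high cells, while POU2AF1 stays between 85.4 and 194 CPM there.

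In antibody-secreting cells BACH2, BCL6 and MEF2B were low, and POU2AF1 was still counted in each library. They were taken as CD3E-negative cells with at least 1% of their UMIs from JCHAIN, the joining chain of secreted antibody, whether or not they held CD79B; XBP1, the driver of the secretory program, had a UMI in 80.0% to 100% of them in each library. There were 88 and 96 such cells in PP, 53 and 132 in whole ileum, 5 and 17 in non-PP and 36 and 46 in PBMC. BACH2 was close to missing, with 4 and 3 UMIs in PP, 0 and 3 in whole ileum and 0 in both non-PP libraries, or 0 to 5.49 CPM. BCL6 was at 12.4 and 6.67 CPM in PP, 4.45 and 10.7 in whole ileum, and 16.4 and 0 in non-PP. MEF2B was at 60.4, 49.3, 33.3 and 42.6 CPM in PP and whole ileum and at 16.4 and 19.7 in non-PP. POU2AF1 was at 188 and 127 CPM in PP, 151 and 150 in whole ileum, 279 and 85.4 in non-PP and 194 and 148 in PBMC. That was lower than in TOP2A-negative B cells of the same library in 5 of 6 ileal libraries, and higher in both blood libraries.

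JCHAIN-high cells were set against the equally weighted mean of the marker-positive and marker-negative classes of TOP2A-negative B cells of the ileum. Marker-positive cells were the smaller class in PP and whole ileum, with 528 against 2799 cells in whole ileum of pig 2. TOP2A had a UMI in 9.43% to 13.6% of JCHAIN-high cells of PP and whole ileum, so these were not all TOP2A-negative. The comparison called 35.9% of genes, 17.8% higher and 18.1% lower, and 3 of the 4 members were lower. BACH2 differed by -2.34 (SE 0.413, interval -3.20 to -1.49, adjusted p = 6.25e-05), BCL6 by -1.32 (SE 0.267, adjusted p = 0.000313) and MEF2B by -0.82 (SE 0.194, interval -1.22 to -0.42, adjusted p = 0.00151). Without the library labelled whole ileum of pig 1 these were -2.0, -1.16 and -0.69, with adjusted p of 0.000830, 0.00240 and 0.0260. Thinning ended the MEF2B call (-0.48, adjusted p = 0.222).

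POU2AF1 did not pass (0.30, SE 0.164, interval -0.04 to 0.64, adjusted p = 0.162), and its direction depended on scaling. Of 18 alternatives 2 passed with POU2AF1 higher, and 1 reversed its direction. Scaled to total UMIs alone it was lower, by -0.74 with an adjusted p of 8.15e-05, while the same change moved the median of all genes from -0.12 to -1.17. BACH2, BCL6 and MEF2B were lower under both scalings. T cell marker RNA was low in these cells of PP and whole ileum (5 markers summing to 48.4 to 75.5 CPM), but in non-PP of pig 2 it summed to 421 CPM and CD3G had a UMI in 64.7% of cells.

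All 8 plasma cell genes tested were higher (median 3.51): PRDM1, the repressor that BACH2 opposes and that shuts down BCL6, by 3.63, XBP1 by 3.39 and IRF4 by 2.44. Germinal center genes were lower in 20 of 23 (median -1.53), with SPIB at -2.74 and the B lineage factor PAX5 at -2.49, while CD38 and FAS were higher by 2.00 and 0.95. Of 12 partners 3 were lower and none higher (median -0.33), namely POU2F2 at -1.04, CABIN1 at -1.14 and HDAC9 at -1.18. Of 9 repair genes 2 were lower, MSH6 at -0.74 among them, and none higher (median -0.38), and resting genes split 2 against 2 of 5 (median 0.28).

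BCL6 was also counted in ileal T cells, at 25.8 to 32.3 CPM. Barcodes of 1 to 50 UMIs, which hold RNA outside cells, gave 13.5 to 58.3 CPM of BCL6 in the ileal libraries. In PP and whole ileum these barcodes held MEF2B at 79.4 to 141 CPM and POU2AF1 at 68.3 to 114, against at most 20.8 and 19.0 in T cells. BACH2 overlapped, at 7.65 to 24.5 CPM in the barcodes and 8.03 to 13.7 in T cells. The part of this RNA in the T cell values of BCL6 was not tested. T cells with both CD4 and PDCD1, genes of follicular helper T cells, held 44.5 and 28.5 CPM in PP, 36.8 and 78.1 in non-PP and 32.6 and 57.8 in whole ileum, from 12 to 126 cells. The other T cells held 31.2, 27.9, 25.7, 25.8, 26 and 25.8 CPM in the same order. The value with CD4 and PDCD1 was higher in all 6 ileal libraries, in PP of pig 2 by little, and in blood it was 6.68 and 2.25 CPM against 2.98 and 6.94. POU2AF1 was higher in these cells too, at 28.3 to 52.3 CPM in PP and whole ileum against 15.2 to 18.3 in the other T cells, and the part of B cell RNA in the BCL6 values was not tested. In ileal epithelial cells with EPCAM, BCL6 lay between 0 and 8.79 CPM, MEF2B between 7.08 and 25.1, POU2AF1 between 0 and 10.8, and BACH2 had no UMI in any of the 6 libraries. Cells with CD14 or CSF1R held BCL6 at 9.07 to 28.4 CPM in ileum and at 9.68 and 17.8 in blood, where they were above blood B cells.

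From highest to lowest by median over PP and whole ileum, BCL6 ran from TOP2A-positive to marker-negative B cells, whose ranges overlapped. Marker-positive B cells (median 29.2 CPM) and T cells (27.5 CPM) came next and also overlapped, and JCHAIN-high cells were last. MEF2B ran from marker-negative and TOP2A-positive B cells, which overlapped, through marker-positive B cells and JCHAIN-high cells to T cells in PP and whole ileum. In the same 4 libraries POU2AF1 was highest in marker-negative B cells and lower in TOP2A-positive ones, with marker-positive B cells and JCHAIN-high cells overlapping below and T cells last. BACH2 overlapped among all 3 B cell classes of PP and whole ileum and lay below them in T cells and lowest in JCHAIN-high cells.

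The genes whose level was most like that of each member over the 16 B cell sums were picked by Pearson r on log2 CPM among 9419 named genes, as a description of sums that share libraries and pigs. For MEF2B they were ZP3 (r = 0.984), RBM38 (0.980) and S1PR2 (0.978), the last at 48.3 to 127 CPM in ileal and 0 to 1.38 CPM in blood sums. For BCL6 they were ID1 (0.970), NEK1 (0.957) and NEIL1 (0.955), for POU2AF1 TMEM206 (0.976), TMEM123 (0.962) and MRPL49 (0.957), and for BACH2 AFF2 (0.915), SIX4 (0.911) and CSNK2B (0.907). AFF2 and SIX4 lay at 0 to 16.6 CPM in ileal sums, of which the smallest held 60342 UMIs from 8 cells. Their r values thus rested on few UMIs and carry little weight. Among the members themselves r was 0.92 for BCL6 with MEF2B, 0.88 for POU2AF1 with MEF2B, 0.81 for BCL6 with POU2AF1 and 0.61 to 0.63 for BACH2 with each of the others. All of these r values span ileal and blood sums, so they take in the difference between the tissues. None was computed within ileum or within blood.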

How the data were processed

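Single-cell libraries from ileum and blood of 2 pigs were sequenced in 4 runs each, which were summed as 1 replicate. The authors aligned the reads with CellRanger to Sus scrofa 11.1 with an Ensembl 97 annotation that they had modified, and deposited raw UMI counts for every barcode, before their own ambient RNA, quality and doublet filters. Of 25880 genes, 17733 were named in the matrices and 951 from a table of gene IDs.

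Members and gene lists were chosen with earlier results of these data known. The 4 members were always named, likewise the 3 genes most like each over the B cell sums, and listed genes by their counts. Some listed genes enter counts and gates but are not reported here by name. Counts were summed per library and class and tested with edgeR 4.0.16 in R 4.3.3 (filterByExpr, TMM scaling, quasi-likelihood fit, Benjamini-Hochberg adjustment); the step was tested on simulated data. A first fit used 16 sums (8 libraries by TOP2A). A second used 20 ileal sums of at least 10 cells. Intervals are at 95%. CPM is 3′ UMIs per 1000000 UMIs of the class in a library, so levels were not compared between genes. Counting floors and shares cover counting error only. Likeness used a prior count of 2. Doublets were not removed in the main fits. Alternatives were DESeq2 1.42.0, other scalings, filters, gates, thinning, doublet and ambient RNA removal, blocks and leaving out each library.

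Libraries with the same number were labelled as from the same pig, which the Y-linked genes of the library labelled whole ileum of pig 1 go against. The correlation of their deviations from group means was 0.238 for PP with non-PP, 0.270 for PP with PBMC and 0.057 for non-PP with PBMC, but -0.009, -0.042 and -0.076 for whole ileum with PP, non-PP and PBMC. Sums of 1 pig share an animal, so p-values measure the spread among these libraries of 2 animals.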

Additional observations from a re-analysis of the deposited data

Results flagged for a closer look

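In 3 splits of the B lineage, levels went one way in both libraries of an ileal dissection and the opposite way in both blood libraries; these differences between tissues were not tested, and the blood classes hold few UMIs. The difference in MEF2B by TOP2A, positive minus negative, averaged 50.5 CPM in PP and 36.5 in whole ileum but -5.42 in PBMC, a gap of 55.9 and 41.9 CPM. The difference in MEF2B by resting marker, with minus without, averaged -193 CPM in PP and -195 in whole ileum against 10.3 in PBMC, a gap of -203 and -205. The difference in POU2AF1 between JCHAIN-high cells and all TOP2A-negative B cells, which include some of the JCHAIN-high ones, averaged -126 CPM in PP and -158 in whole ileum against 53.5 in PBMC, a gap of -180 and -211. JCHAIN itself took 116561 to 143063 CPM of JCHAIN-high cells in PP and whole ileum and 30350 to 35576 CPM in blood. With TMM scaling the fitted ileal difference of POU2AF1 was 0.30 on the log2 scale and did not pass. The part of scaling in this gap was not tested.

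Barcodes of 1 to 50 UMIs, which enter no comparison, held RNA of the members outside cells. The highest library reached 58.3 CPM for BCL6 (lowest 6.46), 24.5 for BACH2 (lowest 0), 114 for POU2AF1 (lowest 11) and 141 for MEF2B (lowest 18.8). More than 3 UMIs were found there in 8 of 8 libraries for BCL6, POU2AF1 and MEF2B and in 7 for BACH2. Removing 10% of each sum in proportion to these barcodes changed no call of a member.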

How the results depend on the processing

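The non-PP sums were the main limit: they held 28 and 65 B cells, and gating on CD79A or thinning left fewer. In TOP2A-negative cells PP minus non-PP kept its direction and stayed uncalled in 19 of 19 alternatives for BCL6 and 17 of 17 for BACH2. For POU2AF1 it did so in 18 of 19 and for MEF2B in 14 of 19. In TOP2A-positive cells the counts were 18 of 19, 17 of 18, 15 of 19 and 13 of 19 in the same order. The sizes of the differences and the numbers of genes called still moved. No alternative reversed BCL6, MEF2B or POU2AF1 between ileum and blood, any of the 4 members between resting-marker classes, or BACH2, BCL6 or MEF2B in JCHAIN-high cells. For every value that reversed or crossed the threshold the cause was not tested. Differences are log2, in the order of the comparisons in the report.

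By TOP2A, BCL6 was 0.93 with library totals in place of TMM, 0.78 with no count filter, 0.71 with a library block, 0.66 with sums per pig and 0.67 with those sums less the library labelled whole ileum of pig 1, all past the threshold, but 0.21 thinned (adjusted p = 0.979). POU2AF1 was 0.11 with library totals, 0.02 at 2000 or more UMIs, 0.14 gated on CD79A and -0.84 thinned, and MEF2B was 1.27 gated on CD79A and -0.72 thinned; of these, POU2AF1 thinned and MEF2B with CD79A passed. PP minus non-PP in TOP2A-negative cells, POU2AF1 was 1.89 and MEF2B 3.02 gated on CD79A, both past the threshold, and MEF2B was -0.05 thinned and -0.02 with either RLE scaling or DESeq2. In TOP2A-positive cells POU2AF1 was 0.00 with library totals, -0.01 with RLE and -0.04 with DESeq2, MEF2B was -0.19, -0.19 and -0.18 under these and -0.29 gated on CD79A, and BCL6 was 0.00 with DESeq2. Ileum minus blood, BACH2 was 1.12 with no filter, 1.15 with DESeq2 and 1.77 over PP and whole ileum only, and POU2AF1 was 0.53 gated on CD79A. The TOP2A contrast between PP and non-PP was 0.97 for BCL6, 1.60 for POU2AF1 and 2.62 for MEF2B when thinned, and 0.13 for MEF2B with TOP2A at 2 or more. By resting marker, BCL6 was -0.42 thinned and POU2AF1 -0.43 gated on CD79A. In JCHAIN-high cells POU2AF1 was -0.74 with library totals and 0.37 with RLE or DESeq2, and MEF2B was -0.48 thinned. BACH2 had no value gated on CD79A or thinned where a group held 0 UMIs.

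Genes called by TOP2A were 1088, but 1919 with sums per pig, 2093 over PP and whole ileum, 607 gated on CD79A and 300 thinned. PP minus non-PP they were 26 in TOP2A-negative cells, but 220 with no filter, 17 at 2000 UMIs, 475 with CD79A, 45 with RLE, 165 with DESeq2, 9 with ambient RNA removed and 11 with TOP2A at 2 or more. In TOP2A-positive cells they were 0, but 41 with no filter, 243 thinned, 5 with DESeq2, 1 with doublets removed and 2 with the pig as replicate block. Ileum minus blood they were 2812, but 1733 with CD79A and 1548 thinned. For the difference of contrasts they were 3, but 38 with no filter, 16 with a library block, 0 with CD79A and 9 with DESeq2. By resting marker they were 2627, but 1228 with CD79A, and in JCHAIN-high cells 2922, but 6412 with library totals and 1389 thinned. Library totals changed higher against lower calls from 504 and 584 to 946 and 319 by TOP2A, from 1486 and 1141 to 996 and 2267 by resting marker and from 1446 and 1476 to 470 and 5942 in JCHAIN-high cells, as the median of all genes moved from -0.16 to 0.03, 0.01 to -0.21 and -0.12 to -1.17. The pig block changed no call of a member (BCL6 by TOP2A 0.72, adjusted p = 0.124; BACH2 ileum minus blood 1.24, adjusted p = 0.0867).

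Leaving out 1 library at a time gave ranges, lowest to highest. By TOP2A they were 0.67 to 0.84 for BCL6, -0.13 to 0.81 for BACH2 and 422 to 1008 genes called. In TOP2A-negative cells of PP and non-PP BCL6 ran from 0.21 to 0.99, POU2AF1 from 0.34 to 1.04 and MEF2B from -0.14 to 0.56, with 2 to 69 genes called. In TOP2A-positive cells BACH2 ran from -0.31 to 2.60, POU2AF1 from -0.01 to 0.82 and MEF2B from -0.23 to 0.78, with 0 to 2 genes called. For the difference of contrasts BACH2 ran from -1.97 to 0.84 and MEF2B from -0.31 to 0.31, with 1 to 25 genes called. Ileum minus blood, BCL6 ran from 2.23 to 3.66 and BACH2 from 0.66 to 1.77, with 1930 to 2701 genes called. By resting marker POU2AF1 ran from -0.65 to -0.50, with 1644 to 2916 genes called, and in JCHAIN-high cells 2332 to 3002 genes were called. Where a library was left out, the lone one of its group was assumed to vary like the others.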
